A study of Mus musculus with 14 samples.

Results

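The miRNAs of epithelial cells isolated from the caput epididymis were compared with those of epithelial cells isolated from the corpus, the next region along the tubule. A miRNA entered the comparison with a mean count above 10 in the 2 caput libraries or in the 2 corpus libraries. Of the 677 miRNAs listed for the epithelial cells, 205 met this rule. The comparison rests on 4 of the 14 libraries of the series, which cover the caput, corpus and cauda in isolated epithelial cells and in whole tissue. The mice were Swiss males of 8 weeks, and their vasculature was perfused with PBS. Material of several mice was pooled for each replicate, and whether same-numbered libraries of different regions share mice is not stated. Incisions and washes served to release the sperm of caput and corpus, and trypsin followed by collagenase freed the cells. Strained cells were plated so that fibroblasts and muscle cells would attach, and those still floating were taken as epithelial cells. Before RNA was extracted, the isolated cells were stained for the androgen receptor, found in epididymal epithelium, and for an acrosome marker of sperm, assays not analysed here. Replicates are described as biological in one place of the study's text and as technical in another. The p-values therefore measure only the spread between the libraries of a fit, and the epithelial fit includes those of the cauda.

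As background, the epididymis is a single long tubule lined by a pseudostratified epithelium of principal, basal, clear and narrow cells, and sperm mature while they pass through it. The caput epithelium is the most active in secretion and absorption, and each region expresses its own set of genes, several Hox genes among them. A miRNA guides the silencing complex to messenger RNAs mainly through its seed, the bases near its 5′ end, so that miRNAs with a shared seed can bind many of the same targets.

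Small RNA was sequenced, and the deposited values are the numbers of reads assigned to each mature miRNA. The caput libraries held 362867 and 324907 counts and the corpus libraries 127111 and 89039, a mean depth 3.18 times higher in the caput. A count of 10 equalled 27.6 and 30.8 CPM, a count taken relative to the library total, in the caput libraries and 78.7 and 112 in the corpus libraries. The rule therefore reached lower levels in the caput. In the caput 199 miRNAs met it and in the corpus 149 did. Of these, 143 met it in both regions, 56 in the caput only and 6 in the corpus only. Entry through 1 region only depends on depth as well as on level, and of the 56 that entered through the deeper caput 9 had a positive fitted change. Counts are therefore also given below for those that met the rule in both regions. Levels are given below as CPM further scaled by TMM factors. Counts of the replicate libraries differed by more than sampling noise, so that errors are taken between libraries. The chi-square per degree of freedom was 27.8 in the caput and 8.07 in the corpus. It was 67.8 in the cauda, whose libraries are in the same fit and enter its errors.

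Markers of epithelium were present in all 4 libraries. The miR-200 family, which maintains the epithelial state by repressing Zeb1 and Zeb2, took 1.56 and 1.48% of the counts in the caput and 1.76 and 2.02% in the corpus. In whole tissue the same family took means of 1.85% in the caput and 1.82% in the corpus. Basal and squamous epithelial markers, led by miR-205-5p, took 1.04 and 1.08% in the caput and 2.04 and 2.48% in the corpus, against means of 0.221 and 0.237% in whole tissue. Markers of other cell types were present as well. The most abundant miRNA of each of the 4 libraries was miR-143-3p, a marker of smooth muscle and other mesenchymal cells, with 12.4 and 17.8% of the counts in the caput and 20.1 and 21.9% in the corpus. The smooth muscle list, miR-143 and miR-145, took 12.8 and 18.7% in the caput and 20.6 and 23.1% in the corpus, and means of 5.09 and 8.50% in the caput and corpus of whole tissue. The label is used here as the name of the preparation, and the source of the muscle and stromal markers was not tested. With RNA from cell mixtures, fewer cells of a type and less RNA per cell cannot be told apart.

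From caput to corpus, the miR-196 pair of the Hox clusters, miR-190-5p, miR-184-3p, miR-222-3p and 4 miRNAs of a germline-linked cluster on the X chromosome rose between 5.73-fold and 28.0-fold. The largest fall in the main fit was that of miR-9-5p, and the abundant miR-204-5p fell by 2.02 on the log2 scale. Both arms of the endothelial miR-126 fell as well. For most miRNAs, 153 of the 205 (74.6%), the fitted change was under 2-fold. Of these, 14 had an adjusted p below 0.05 in limma-voom, and the median SE (standard error, log2 scale) over all 205 was 0.34. A fitted change under 2-fold is thus not the same as no change.

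The test was limma-voom in 1 fit of the 6 epithelial libraries, with p-values adjusted over the 205 miRNAs. Calls required an adjusted p below 0.05 together with a fitted change of 2-fold or more. By this rule 25 of the 205 (12.2%) were called, 13 higher in the corpus (6.34%) and 12 lower (5.85%). Of the 143 that met the count rule in both regions, 17 were called, 9 higher and 8 lower. The other calls met it in the corpus only (miR-184-3p, miR-190-5p, miR-741-3p and miR-881-3p, called higher) or in the caput only (miR-9-5p, miR-31-5p, miR-574-3p and miR-582-5p, called lower). Both caput libraries lay on one side of both corpus libraries in 136 of the 205 (66.3%), the 25 called among them. The median log2 fold change over all 205 was -0.15 and 85 were positive. Scaling by library totals shifted changes by a median of 0.16, to a median of 0.01, and 18 were then called higher and 9 lower. With DESeq2 size factors the shift was 0.10 and the calls were 18 higher and 10 lower, and with the DESeq2 Wald test 0.097, with 18 higher and 9 lower. Without caput replicate 1 the number called was 16, without caput replicate 2 it was 10, and without corpus replicate 1 it was 13. Calls of 8 miRNAs held in every alternative that tested them and without each library in turn, namely miR-196a-5p, miR-196b-5p, miR-190-5p, miR-222-3p, miR-9-5p, miR-146b-5p, miR-148a-5p and miR-204-5p.

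**Figure D1:**
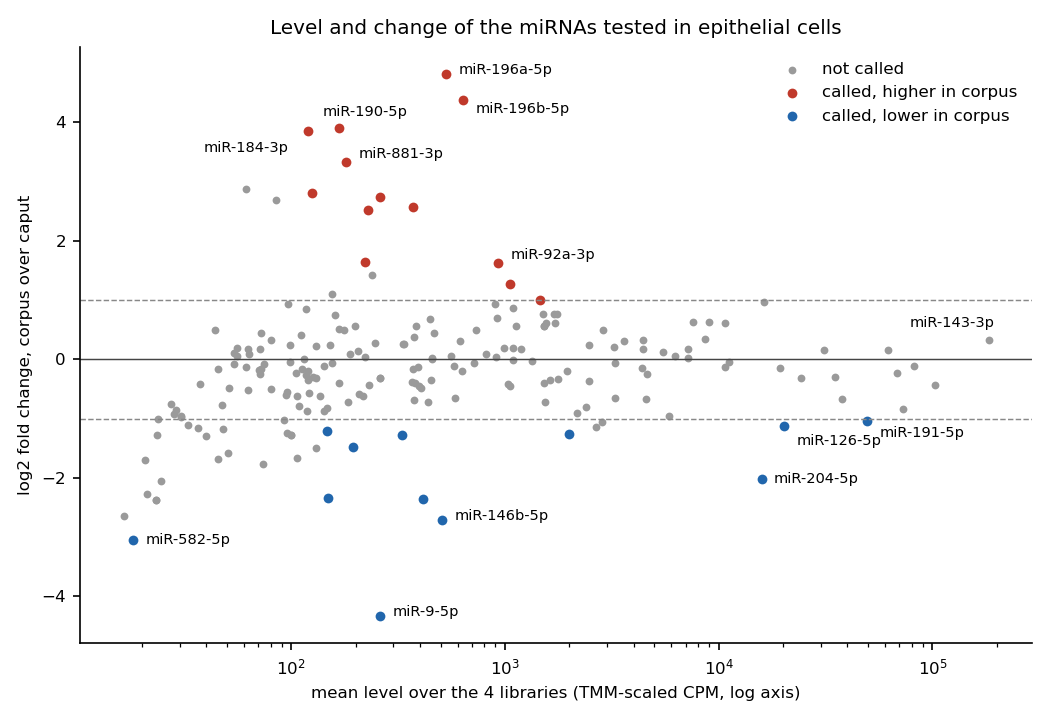
Each point is 1 of the 205 miRNAs tested, with its mean level over the 4 libraries (TMM-scaled CPM, log axis) against its log2 fold change from caput to corpus, and dashed lines at a 2-fold change. The 13 called higher in the corpus (red) reach 4.81 and the 12 called lower (blue) reach -4.34, while the most abundant miRNA, miR-143-3p, sits at 0.33.

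The called miRNAs took a modest share of the libraries. Together they held 12.4 and 11.1% of the counts in the caput and 6.92 and 6.07% in the corpus. The 13 that rose held 0.255 and 0.218% in the caput and 1.05 and 1.01% in the corpus. Those that fell held 12.1 and 10.9% in the caput and 5.87 and 5.06% in the corpus, so that most of the reads behind the calls belonged to miRNAs of higher level in the caput. Much of this share was miR-191-5p, whose call held in 4 of 10 alternatives. The list of miR-191 and miR-425, nearly all of it miR-191-5p, took 6.35 and 5.80% in the caput and 3.74 and 2.96% in the corpus.

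The miR-196 family is encoded inside the Hox clusters and represses Hox messenger RNAs such as Hoxb8. Levels of miR-196a-5p were 37.3 and 32.2 CPM in the caput and 917 and 1134 CPM in the corpus, a log2 change of 4.81 (standard error, SE, 0.36, adjusted p = 0.000181). Levels of miR-196b-5p were 90.2 and 35.4 CPM in the caput and 1201 and 1215 CPM in the corpus, a log2 change of 4.37 (SE 0.58, adjusted p = 0.00296), which was 5.06 without caput replicate 1 and 3.76 without caput replicate 2. In both, each corpus library was far above each caput library, and the caput counts were low, with 12 and 10 for miR-196a-5p and 29 and 11 for miR-196b-5p. In GRCm38, Mir196a-1 spans 96265164 to 96265265 of chromosome 11 (plus strand), outside any annotated gene. Mir196a-2 lies on chromosome 15 from 102973350 to 102973434 on the plus strand, in an intron of Hoxc5, and yields the same mature miRNA. Mir196b spans 52230081 to 52230165 of chromosome 6 (minus strand) and overlaps an exon of Hoxa9. The miR-10 genes also sit in Hox clusters, and 0 of their 3 tested miRNAs were called, beside 12.2% of all 205. Levels of miR-10b-5p were 94464 and 74669 CPM in the caput and 90141 and 67242 CPM in the corpus (log2 fold change -0.11, SE 0.20, adjusted p = 0.727), and the ranges of the regions overlapped.

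Both miR-184-3p, best known from the epithelia of lens and cornea, and miR-190-5p were near the limit of detection in the caput. Levels of miR-190-5p were 18.7 and 19.3 CPM in the caput, 6 counts in each library, and 235 and 398 CPM in the corpus, with 29 and 39 counts. The log2 change was 3.89 (SE 0.53, adjusted p = 0.00296). Levels of miR-184-3p were 12.4 and 16.1 CPM in the caput and 276 and 174 CPM in the corpus, a log2 change of 3.85 (SE 0.86, adjusted p = 0.0159). Each was thus low in the caput pair of libraries and clearly present in the corpus pair. For miR-184-3p the adjusted p was 0.0700 without caput replicate 1, 0.141 without caput replicate 2 and 0.0614 without corpus replicate 1. Mir190a spans 67236660 to 67236726 of chromosome 9 (minus strand), within an intron of the talin gene Tln2. Mir184 lies on the same chromosome from 89802260 to 89802328 on the minus strand, in no annotated gene.

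A cluster on the X chromosome, expressed mainly in germ cells and Sertoli cells of the testis, holds miR-465 to miR-883. Of its 30 listed miRNAs, 6 were tested and 4 were called higher in the corpus, beside 6.34% of all 205. Only miR-871-3p and miR-470-5p met the count rule in both regions, and the other 4 entered through the shallower corpus only, so that the rule itself favoured their direction. Levels of miR-871-3p, the most abundant of them, were 84.0 and 48.3 CPM in the caput and 609 and 296 CPM in the corpus, a log2 change of 2.74 (SE 0.45, adjusted p = 0.00641). Levels of miR-881-3p were 28.0 and 32.2 CPM in the caput and 454 and 204 CPM in the corpus, a log2 change of 3.33 (SE 0.69, adjusted p = 0.0129). Levels of miR-470-5p were 96.5 and 41.9 CPM in the caput and 519 and 255 CPM in the corpus, a log2 change of 2.52 (SE 0.61, adjusted p = 0.0227). In these 3 and in miR-741-3p the regions did not overlap, as in 136 of the 205 tested (66.3%). Corpus replicate 1 was each time the higher of its pair. Levels of miR-741-3p were 31.1 and 22.6 CPM in the caput and 357 and 91.9 CPM in the corpus, a log2 change of 2.81 (SE 0.74, adjusted p = 0.0310), with the corpus libraries wide apart, and it was not called when only the 4 libraries of caput and corpus were fitted (adjusted p = 0.0531). Without caput replicate 2 all 4 calls were lost, with adjusted p-values of 0.0681 for miR-871-3p, 0.0960 for miR-881-3p, 0.158 for miR-470-5p and 0.168 for miR-741-3p. The log2 change was 3.15 for miR-470-5p without caput replicate 1, 2.73 for miR-881-3p without corpus replicate 1 and 3.71 for miR-741-3p without corpus replicate 2. Without corpus replicate 1 the calls of miR-881-3p and miR-470-5p were lost, with a log2 change of 1.99 for miR-470-5p, and miR-741-3p was no longer tested. The call of miR-741-3p was also lost without caput replicate 1 (log2 change 3.06). The 4 hairpins lie on the minus strand of the X chromosome within a run of 19 hairpins no more than 10 kb apart, Mir741 from 66796805 to 66796875, Mir881 from 66801944 to 66802021, Mir871 from 66810428 to 66810504 and Mir470 from 66813951 to 66814025.

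The whole germline list took 0.0278 and 0.0197% of the counts in the caput and 0.246 and 0.121% in the corpus, and 9 of its 30 miRNAs had 0 counts in all 4 libraries, such as miR-463-3p, miR-471-5p and miR-742-3p. Sperm and other germ cells also carry the miR-34 and miR-449 family, which multiciliated cells express as well. Its share moved the other way, from 0.375 and 0.358% in the caput to 0.196 and 0.188% in the corpus. Of its 4 tested miRNAs 0 were called, beside 12.2% of all 205. Levels of miR-34c-5p, its most abundant member, were 3896 and 3472 CPM in the caput and 1797 and 1537 CPM in the corpus (log2 fold change -1.14, SE 0.41, adjusted p = 0.0846). The part of germ cell RNA in these values was not tested.

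The remaining miRNAs that rose include a regulator of the cell cycle. With its partner miR-221, miR-222-3p represses Cdkn1b, an inhibitor of cell cycle entry. Levels of miR-222-3p were 103 and 106 CPM in the caput and 552 and 725 CPM in the corpus, a log2 change of 2.57 (SE 0.35, adjusted p = 0.00296), and the replicates lay close together in each region. Mir222 lies on the X chromosome from 19146893 to 19146971 on the minus strand. The miR-17-92 cluster and its paralogs, which promote proliferation and survival, had 2 called of 9 tested, beside 12.2% of all 205. Levels of miR-92a-3p were 507 and 393 CPM in the caput and 1777 and 1042 CPM in the corpus, a log2 change of 1.62 (SE 0.29, adjusted p = 0.00879). Levels of miR-106b-5p were 93.4 and 122 CPM in the caput and 373 and 296 CPM in the corpus, a log2 change of 1.65 (SE 0.33, adjusted p = 0.0129). Corpus libraries were above caput libraries for both, but the call of miR-92a-3p was lost without caput replicate 2 (adjusted p = 0.0703) and without corpus replicate 1 (0.0584). That of miR-106b-5p was lost without caput replicate 1 (0.0752), caput replicate 2 (0.0681) or corpus replicate 1 (0.0785).

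Smaller rises were found for miR-186-5p, encoded in an intron of Zranb2 on chromosome 3, and for miR-141-3p of the miR-200 family. Levels of miR-186-5p were 685 and 561 CPM in the caput and 1582 and 1399 CPM in the corpus, a log2 change of 1.27 (SE 0.24, adjusted p = 0.00978). Levels of miR-141-3p were 1094 and 847 CPM in the caput and 1935 and 1945 CPM in the corpus, a log2 change of 1.01 (SE 0.20, adjusted p = 0.0125), at the edge of the 2-fold rule. Without caput replicate 2 or corpus replicate 1 the adjusted p was 0.0727 and 0.0688 for miR-186-5p and 0.0727 and 0.0784 for miR-141-3p, whose adjusted p without corpus replicate 2 was 0.0525. With edgeR the change of miR-141-3p was 0.99, and with all miRNAs of at least 1 count tested it was 0.86, so that both ended its call. It was the only call among the 8 tested miRNAs of the miR-200 family, beside 12.2% of all 205. The family median was 0.05, and the counts of miR-141-3p include fractions. The most abundant member, miR-200a-3p, had 4103 and 3757 CPM in the caput and 4994 and 4774 CPM in the corpus (log2 fold change 0.32, SE 0.20, adjusted p = 0.313).

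Among the miRNAs that fell, miR-204-5p was the one of high level with the largest change. It is encoded in an intron of Trpm3 and is best known from the pigmented and other epithelia of the eye. Levels of miR-204-5p were 26349 and 24521 CPM in the caput and 7124 and 5443 CPM in the corpus, a log2 change of -2.02 (SE 0.19, adjusted p = 0.000474). The caput libraries lay close together and both were well above the corpus libraries. Its counts include fractions, and its relative miR-211-5p was not tested. Mir204 lies on chromosome 19 from 22750605 to 22750672 on the plus strand.

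The largest fall fitted by limma-voom belonged to miR-9-5p, a miRNA of neural progenitors and neurons. With edgeR the fitted falls of miR-582-5p (-6.03) and miR-9-3p (-5.90), both at 0 counts in the corpus, passed that of miR-9-5p (-4.44). Levels of miR-9-5p were 597 and 399.5 CPM in the caput, with 192 and 124 counts, and 32.5 and 10.2 CPM in the corpus, with 4 and 1 counts. The log2 change was -4.34 (SE 0.66, adjusted p = 0.00424), or -5.001 without corpus replicate 1 and -3.72 without corpus replicate 2. The miRNA was readily detected in the caput and close to absent in the corpus at this depth. The other arm, miR-9-3p, had 17 and 4 counts in the caput and 0 in both corpus libraries, and was not called (adjusted p = 0.0775). Against a floor of 3 counts over the region, with its caput counts taken as exact, miR-9-3p was 2.45-fold lower in the corpus. Its fitted change of -2.64 was -3.55 without caput replicate 2. The mature miR-9-5p can come from 3 genes, on chromosomes 3, 7 and 13, each within a long noncoding RNA. Other miRNAs enriched in brain were not called, 0 of 4 tested beside 12.2% of all 205, with a median log2 fold change of -0.59. The values were -1.67 for miR-138-5p (SE 0.51, adjusted p = 0.0508), -0.62 for miR-128-3p (SE 0.46, adjusted p = 0.374), -0.55 for miR-132-3p (SE 0.49, adjusted p = 0.470) and 0.0055 for miR-218-5p (SE 0.33, adjusted p = 0.990). Of these only miR-218-5p met the count rule in both regions, and 6 of the 18 listed, miR-124-3p among them, had 0 counts in all 4 libraries. Levels of miR-218-5p, the most abundant of the list, were 112 and 119 CPM in the caput and 114 and 112 CPM in the corpus.

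Further falls were those of miR-146b-5p and miR-31-5p. Induced by NF-kappaB, miR-146b-5p restrains signalling through Traf6 and Irak1. Levels of miR-146b-5p were 753 and 1007 CPM in the caput and 170.4 and 91.9 CPM in the corpus, a log2 change of -2.71 (SE 0.37, adjusted p = 0.00296). Levels of miR-31-5p, a miRNA of keratinocytes, were 249 and 251 CPM in the caput and 40.6 and 51.1 CPM in the corpus, a log2 change of -2.34 (SE 0.47, adjusted p = 0.0129). In both the caput libraries were several times higher than the corpus libraries. The call of miR-31-5p rested on 5 counts in each corpus library, and was lost without caput replicate 2 (adjusted p = 0.0703) or corpus replicate 1 (0.0655). Of the other 2 tested miRNAs on the basal and squamous list, 0 were called, beside 12.2% of all 205. Levels of miR-205-5p were 11184 and 10809 CPM in the caput and 20837 and 22314 CPM in the corpus, a log2 change of 0.97 (SE 0.15, adjusted p = 0.00424) that stayed just under 2-fold. For miR-203-3p the levels were 289 and 180.4 CPM in the caput and 138 and 133 CPM in the corpus (log2 fold change -0.72, SE 0.37, adjusted p = 0.205).

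Levels of miR-148a-5p were 747 and 648 CPM in the caput and 162 and 102 CPM in the corpus, a log2 change of -2.36 (SE 0.33, adjusted p = 0.00296). The abundant strand of the same hairpin, miR-148a-3p, which represses Dnmt1, had 125124 and 108863 CPM in the caput and 100876 and 74049 CPM in the corpus (log2 fold change -0.43, SE 0.20, adjusted p = 0.174). Neither arm overlapped between the regions, only the minor arm was called, and whether the arms differed in their change was not tested.

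Among the most abundant miRNAs, miR-191-5p was the only call. Levels of miR-191-5p, which is expressed widely across tissues, were 71378 and 60529 CPM in the caput and 38340 and 26848 CPM in the corpus, a log2 change of -1.03 (SE 0.22, adjusted p = 0.0131). Caput libraries were higher than corpus libraries, but its change was near the 2-fold rule, and it was called in 4 of 10 alternatives. Its log2 fold change was -0.87 with library totals, -0.93 with DESeq2 size factors and -0.92 with the DESeq2 Wald test. It was also -0.97 with the same CPM threshold in both regions, -0.96 with only the 4 libraries compared, -0.96 with TMM and the model on the miRNAs of caput and corpus only, and -0.98 without cauda replicate 1. Without caput replicate 1, caput replicate 2 or corpus replicate 2 its adjusted p was 0.0557, 0.0703 and 0.0747.

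Levels of miR-672-5p, from an intron of Nexmif on the X chromosome, were 448 and 489.7 CPM in the caput and 179 and 204 CPM in the corpus, a log2 change of -1.27 (SE 0.27, adjusted p = 0.0143). Levels of miR-467a-5p, one of the rodent miRNAs in the Sfmbt2 gene, were 336 and 245 CPM in the caput and 97.4 and 102 CPM in the corpus, a log2 change of -1.47 (SE 0.37, adjusted p = 0.0249). Levels of miR-574-3p, from an intron of Fam114a1, were 221 and 197 CPM in the caput and 89.3 and 81.7 CPM in the corpus, a log2 change of -1.22 (SE 0.36, adjusted p = 0.0483). All 3 were higher in each caput library than in each corpus library, but their calls did not hold when any 1 of the 4 libraries was left out. In the order caput replicates 1 and 2 and corpus replicates 1 and 2, the adjusted p without that library was 0.0700, 0.0822, 0.108 and 0.0648 for miR-672-5p. For miR-467a-5p it was 0.145, 0.0681, 0.108 and 0.0838, and for miR-574-3p 0.210, 0.122, 0.132 and 0.134. The call of miR-574-3p also ended with library totals (adjusted p = 0.0565), DESeq2 size factors (0.0573), the DESeq2 Wald test (0.127) and TMM and the model on the miRNAs of caput and corpus only, chosen after seeing the data (0.0622). It was called in 5 of 9 alternatives, over which the adjusted p ran from 0.0329 to 0.127.

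The lowest level among the calls was that of miR-582-5p, from an intron of the phosphodiesterase gene Pde4d on chromosome 13. It had 13 and 10 counts in the caput libraries, which is 40.5 and 32.2 CPM, and 0 in both corpus libraries. Against the floor of 3 counts over the region, with its caput counts taken as exact, it was 2.68-fold lower in the corpus (adjusted p = 0.0129). With corpus libraries this shallow its absence there cannot be told from a low level. The call was lost with the DESeq2 Wald test (adjusted p = 0.0867, of a range from 0.000779 to 0.0867) and without caput replicate 2 (0.0703) or corpus replicate 1 (0.0593).

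Endothelial miR-126, encoded in the Egfl7 gene, promotes vascular integrity. Levels of miR-126-5p were 32390.4 and 23204 CPM in the caput and 13064 and 12040.2 CPM in the corpus, a log2 change of -1.13 (SE 0.20, adjusted p = 0.00957). Levels of miR-126-3p were 3364 and 2313 CPM in the caput and 1258 and 1052 CPM in the corpus, a log2 change of -1.27 (SE 0.24, adjusted p = 0.0101). Both arms were higher in each caput library than in each corpus library. With library totals the change of miR-126-5p was -0.96, under the 2-fold rule. Its adjusted p was 0.0653 without caput replicate 1, 0.0540 without corpus replicate 1 and 0.0525 without corpus replicate 2, and that of miR-126-3p was 0.0691 without caput replicate 1 and 0.0564 without corpus replicate 2. Mir126a lies on chromosome 2 from 26591357 to 26591429 on the plus strand.

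Lists of markers of other cells gave the following shares of the counts. The numbers called in each list stand beside 12.2% called of all 205. The endothelial list, both arms of miR-126, took 3.17 and 2.44% of the counts in the caput and 1.39 and 1.44% in the corpus, and 2 of its 2 miRNAs were called. In the smooth muscle list 0 of 3 tested were called, with a median log2 fold change of 0.17, and miR-143-3p had 140170 and 186561 CPM in the caput and 207562 and 199025 CPM in the corpus (log2 fold change 0.33, SE 0.32, adjusted p = 0.504). Both shares differed between regions in opposite directions, without a call for the muscle markers. Fibroblast and stromal markers, led by miR-199a-3p, took 0.266 and 0.312% in the caput and 0.398 and 0.487% in the corpus, with 0 of 5 called and a median of 0.03. The counts of miR-199a-3p and miR-199b-3p were identical (log2 fold change 0.56), so that they are 1 signal, and the others were at 0.03 (miR-199a-5p), -0.27 (miR-214-3p) and -0.48 (miR-199b-5p). Striated muscle markers took 0.0333 and 0.0351% in the caput and 0.0574 and 0.0640% in the corpus, nearly all of it miR-133a-3p, with 0 of 1 called and miR-208b-3p and miR-499-5p at 0 counts. Red blood cell markers took 0.0689 and 0.0609% in the caput and 0.0338 and 0.0854% in the corpus, with 0 of 3 called, the most abundant being miR-486-5p and miR-3107-5p, whose counts were identical, and miR-3107-3p at 0. Leukocyte markers, led by miR-142-5p, took 0.0766 and 0.0449% in the caput and 0.0684 and 0.0562% in the corpus, with 0 of 2 called and miR-150-3p, miR-155-3p and miR-223-5p at 0. The shares of blood cell markers therefore overlapped between the regions. The part of these other cell types in the changes of the epithelial preparation was not tested.

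**Figure D2:**
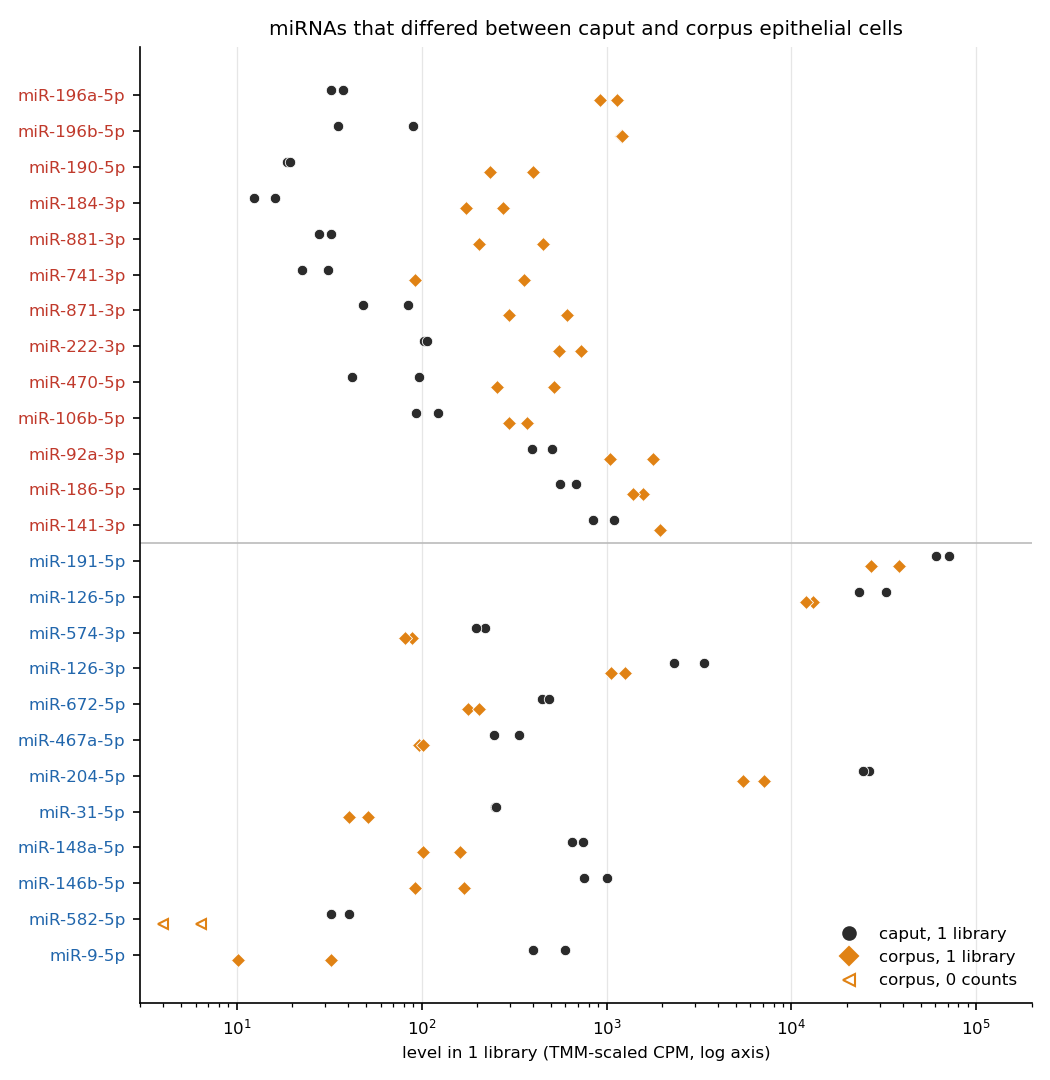
Levels of the 25 called miRNAs in each library (TMM-scaled CPM, log axis), with caput libraries as black circles, corpus libraries as orange diamonds, and open triangles for corpus libraries with 0 counts, drawn at the low end of the axis. Names in red rose and names in blue fell, from miR-196a-5p (37.3 and 32.2 CPM against 917 and 1134 CPM) to miR-9-5p (597 and 399.5 CPM against 32.5 and 10.2 CPM), and the regions do not overlap in these, as in 136 of the 205 tested (66.3%).

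Mature sequences from RefSeq (GRCm38.p6) were found for 173 of the 205 miRNAs and for 23 of the 25 called, the others being miR-126-5p and miR-467a-5p. The sequences of called miRNAs that share a seed with another tested miRNA are shown, because members of such families can bind many of the same targets. Capitals mark the seed, bases 2 to 8. The seed AGGUAGU belonged to the pair that rose most.
miR-196a-5p: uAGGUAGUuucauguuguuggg
miR-196b-5p: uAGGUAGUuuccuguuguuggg
The seed GAGAACU was shared by miR-146b-5p, which fell, and miR-146a-5p, with 616 and 485 CPM in the caput and 584 and 786 CPM in the corpus (log2 fold change 0.30, SE 0.25, adjusted p = 0.427).
miR-146a-5p: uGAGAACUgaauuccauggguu
miR-146b-5p: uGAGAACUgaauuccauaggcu
The seed GCUACAU was shared by miR-222-3p, which rose, and miR-221-3p, with 1139 and 1099 CPM in the caput and 1185 and 1338 CPM in the corpus (log2 fold change 0.17, SE 0.18, adjusted p = 0.574).
miR-221-3p: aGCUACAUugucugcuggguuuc
miR-222-3p: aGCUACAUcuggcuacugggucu
The seed AUUGCAC was shared by miR-92a-3p, which rose, miR-25-3p (log2 fold change 0.25, adjusted p = 0.340) and miR-92b-3p (-1.25, adjusted p = 0.170).
miR-25-3p: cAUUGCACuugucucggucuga
miR-92a-3p: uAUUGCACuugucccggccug
miR-92b-3p: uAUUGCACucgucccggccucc
The seed AAAGUGC was shared by miR-106b-5p, which rose, and 3 miRNAs that were not called, miR-17-5p (log2 fold change 0.25), miR-20a-5p (0.44) and miR-93-5p (0.09).
miR-17-5p: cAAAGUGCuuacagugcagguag
miR-20a-5p: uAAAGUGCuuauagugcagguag
miR-93-5p: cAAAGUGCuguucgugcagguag
miR-106b-5p: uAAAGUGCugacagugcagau
The seed AACACUG joined miR-141-3p, which rose, with miR-200a-3p.
miR-141-3p: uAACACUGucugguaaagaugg
miR-200a-3p: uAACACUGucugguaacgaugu
The seed AAGUUCU joined miR-148a-5p, which fell, with miR-148b-5p (log2 fold change -0.95, adjusted p = 0.263).
miR-148a-5p: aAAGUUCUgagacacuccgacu
miR-148b-5p: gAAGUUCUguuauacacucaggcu
Except for the miR-196 pair, these calls stood beside relatives that were not called, and whether the changes differed within a seed was not tested.

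The seeds of miR-204-5p, miR-9-5p and miR-191-5p, which fell, had no other member among the 173 tested miRNAs with a sequence, nor had those of miR-190-5p and miR-184-3p, which rose. They are shown as calls that stood alone by seed, with the seed, bases 2 to 8, in capitals.
miR-204-5p: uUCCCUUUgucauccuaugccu
miR-9-5p: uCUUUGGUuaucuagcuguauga
miR-191-5p: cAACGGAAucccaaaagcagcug
miR-190-5p: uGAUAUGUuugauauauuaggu
miR-184-3p: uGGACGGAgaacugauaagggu
The 4 called miRNAs of the X-linked cluster each had a seed that no other of these 173 carried.
miR-741-3p: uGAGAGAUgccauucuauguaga
miR-881-3p: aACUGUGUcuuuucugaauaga
miR-871-3p: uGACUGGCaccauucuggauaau
miR-470-5p: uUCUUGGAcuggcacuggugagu

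Apart from miR-148a-3p and both arms of miR-126, given above, the other arms of called miRNAs had few counts. Of those tested, miR-141-5p had 71.6 and 80.5 CPM in the caput and 105 and 40.8 CPM in the corpus (log2 fold change -0.07, adjusted p = 0.924). With 23 and 2 counts in the caput and 2 and 0 in the corpus, miR-582-3p gave -1.27 (adjusted p = 0.574). Below the count rule, in the same order of libraries, miR-106b-3p had 7, 5, 0 and 4 counts, miR-222-5p 6, 2, 0 and 0, miR-871-5p 2, 2, 8 and 1, and miR-196a-2-3p 0, 0, 1 and 6. In that order miR-92a-1-5p, also below the rule, had 14, 5, 4 and 9 counts. The remaining other arms had at most 5 counts in a library, namely miR-146b-3p, miR-184-5p, miR-186-3p, miR-190-3p, miR-191-3p, miR-196a-1-3p, miR-196b-3p, miR-204-3p, miR-31-3p, miR-467a-3p, miR-470-3p, miR-574-5p, miR-672-3p and miR-741-5p.

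Values of neighbours in the genome are given next, and whether neighbours differed in their change was not tested. In the X-linked cluster the tested neighbours miR-465c-5p and miR-743b-3p had fitted changes of 2.87 (SE 0.88, adjusted p = 0.0508) and 2.68 (SE 1.09, adjusted p = 0.123) from 18 and 7 and from 28 and 7 counts in the corpus, through which alone they met the count rule. In alternatives miR-465c-5p was called in 6 of 8 and miR-743b-3p in 3 of 9, and the change of miR-743b-3p was 3.44 without corpus replicate 2. Beside miR-106b-5p in an intron of Mcm7, miR-25-3p and miR-93-5p were not called. Beside miR-92a-3p on chromosome 14, where its hairpin lies in the noncoding host Mir17hg, the fitted changes of miR-17-5p, miR-19a-3p, miR-19b-3p and miR-20a-5p ran from -0.50 to 0.44 without a call. The mature miR-92a-3p also has a gene on the X chromosome. Next to miR-141-3p, miR-200c-3p had a log2 fold change of 0.18 (adjusted p = 0.615), and next to miR-191-5p, miR-425-5p had -0.58 (adjusted p = 0.371). Of the 20 tested miRNAs encoded on the X chromosome only, 5 rose and 1 fell, beside 13 and 12 of all 205, and 4 of the 5 that rose were those of the X-linked cluster.

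Among the 10 most abundant miRNAs, which took 70.6 and 71.2% of the counts in the caput and 70.9 and 68.2% in the corpus, fitted changes ran from -1.03 for miR-191-5p to 0.33 for miR-143-3p. Levels of miR-22-3p were 102667 and 83703 CPM in the caput and 58747 and 45975 CPM in the corpus (log2 fold change -0.83, SE 0.18, adjusted p = 0.0154). Levels of let-7c-5p were 49121 and 43079 CPM in the caput and 30379.6 and 27695 CPM in the corpus (log2 fold change -0.67, SE 0.15, adjusted p = 0.0180). Both were lower in each corpus library but under the 2-fold rule. A further 12 miRNAs had an adjusted p below 0.05 and a change under 2-fold, such as miR-205-5p and miR-429-3p of the miR-200 family (-0.66, SE 0.19, adjusted p = 0.0470). The levels of miR-10a-5p, miR-26a-5p, miR-21-5p and let-7f-5p gave log2 fold changes of -0.24, 0.15, -0.30 and 0.15 and adjusted p-values of 0.361, 0.606, 0.193 and 0.504.

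Of the 205 miRNAs tested, 142 belonged to at least 1 of 35 lists of families, clusters and markers, and of the 25 called, 21 did. In the let-7 family 0 of 13 were called and the median was -0.41, although its members ranged from -1.77 for let-7b-3p to 0.62 for let-7i-5p. The miR-30 family had 0 of 9 called and a median of 0.11, and the miR-181 family 0 of 6 and 0.27. The medians were -0.23 for the miR-23, miR-27 and miR-24 clusters (0 of 6 called) and -0.23 for miR-21 (0 of 2). With 12.2% of all 205 called, counts this small say little about a family. The most abundant members were miR-30a-5p (0.63, adjusted p = 0.0364), miR-181c-5p (0.61, adjusted p = 0.0508) and miR-27b-3p (-0.31, adjusted p = 0.262). The median of the miR-29 family was -0.15 with 0 of 4 called, and turned to 0.0060 with library totals. The median of miR-99, miR-100 and miR-125 was -0.05 with 0 of 8 called, and turned to 0.06 with DESeq2 size factors and 0.12 with library totals. For miR-15 and miR-16 the median was -0.39 with 0 of 5 called, for the miR-322 to miR-450 cluster -0.35 with 0 of 3, for miR-148 and miR-152 -0.34 with 1 of 6 lower, and for miR-22 -1.21 with 0 of 2. The most abundant members of 4 of these lists were miR-29a-3p (-0.25, adjusted p = 0.363), miR-99b-5p (-0.15, adjusted p = 0.641), miR-16-5p (0.016, adjusted p = 0.941) and miR-322-5p (-0.72, adjusted p = 0.174). The only tested member of miR-193 and miR-365 was miR-193-3p at 0.33, and the only one of miR-375 and miR-7 was miR-375-3p, known from endocrine cells, with 4219.6 and 3509 CPM in the caput and 2053 and 1634 CPM in the corpus (log2 fold change -1.06, SE 0.42, adjusted p = 0.114).

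The large imprinted and rodent clusters were mostly under the detection rule. Of 55 miRNAs listed for the imprinted Dlk1-Dio3 cluster, 4 were tested and 0 called, beside 12.2% of all 205. All 4 fitted changes were positive with a median of 0.85, and the list took 0.163 and 0.181% of the counts in the caput and 0.337 and 0.319% in the corpus. Its most abundant member, miR-127-3p, had 1298 and 1302 CPM in the caput and 2280.1 and 2124 CPM in the corpus (log2 fold change 0.76, SE 0.26, adjusted p = 0.0671). Of 60 listed for the Sfmbt2 cluster, 5 were tested and 1, miR-467a-5p, was called. The cluster took 0.0617 and 0.0572% of the counts in the caput and 0.0189 and 0.0247% in the corpus, and 19 of its miRNAs had 0 counts in all 4 libraries. Its members miR-669a-5p and miR-669p-5p had identical counts, 11.3 and 13.7 in the caput and 0.5 and 1 in the corpus, a ratio of 5.83 with a 95% counting interval from 1.09 to 38.1, and were not called (log2 fold change -2.37, adjusted p = 0.0508). The fitted change was -1.42 without corpus replicate 1 and -3.30 without corpus replicate 2. Intervals cover counting error only, and floors cover only that of the region at 0 counts.

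**Figure D3:**
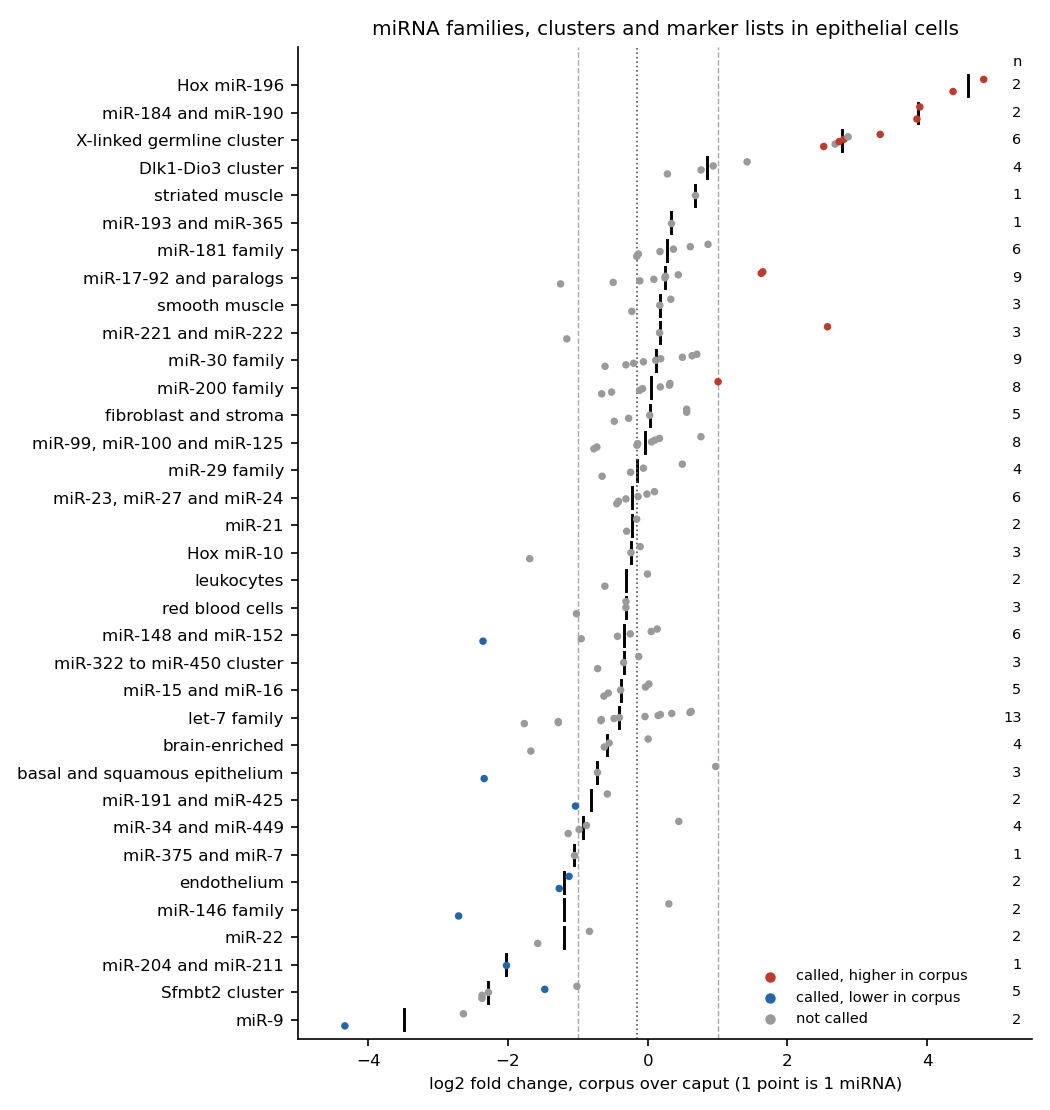
Fitted log2 fold changes from caput to corpus of the tested miRNAs in each of 35 lists (1 point is 1 miRNA; n is the number tested; black bars are list medians), with a dotted line at the median of all 205 miRNAs (-0.15) and dashed lines at a 2-fold change. Called miRNAs (red higher, blue lower) lead the miR-196, X-linked and miR-9 lists, while let-7, miR-30 and miR-181 hold none, and the sign of the median turned with scaling for the miR-29 list (-0.15 to 0.0060) and the miR-99, miR-100 and miR-125 list (-0.05 to 0.12).

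Values at the edge of the rule were as follows. Just inside, miR-671-3p had 14 and 7 counts in the caput and 2 and 0 in the corpus, miR-9-3p 17 and 4 against 0 and 0, and miR-669c-5p 11 and 10 against 1 and 2, each with a higher mean of 10.5. Just outside, miR-1843b-5p had 10 and 10 counts in the caput and 2 and 3 in the corpus, miR-3096-5p 11 and 9 against 10 and 4, and miR-92a-1-5p 14 and 5 against 4 and 9. The median standard error was 0.26 for miRNAs that met the rule in both regions and 0.56 for those that met it in the caput only, and was thus smaller among the former.

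The next step along the tubule, from the corpus to the cauda, was tested in the same fit and shares the corpus libraries, so that its values are only set beside those above. It called 21 of 192 miRNAs (10.9%). Levels of miR-204-5p were 629 and 779 CPM in the cauda, a change of -3.16 from the corpus (SE 0.21, adjusted p = 8.1e-05). Levels of miR-126-5p were 52616 and 42528 CPM in the cauda, a change of 1.91 (SE 0.20, adjusted p = 0.00132). The former was lowest in the cauda and the latter highest there. Levels of miR-196b-5p were 3992 and 2025 CPM in the cauda, a change of 1.24 that was not called (SE 0.37, adjusted p = 0.0644), and those of miR-190-5p were 93.1 and 148 CPM, a change of -1.38 (SE 0.38, adjusted p = 0.0471). Of the 13 that rose from caput to corpus, miR-190-5p and miR-141-3p were called lower in the cauda than in the corpus and 0 were called higher. Of the 12 that fell, 1 was called lower again and both arms of miR-126 were called higher.

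Whole tissue gives the same step in 3 caput and 2 corpus libraries prepared apart, and it shares none with the epithelial cells. Its values were normalized separately, and 100 of 334 miRNAs (29.9%) were called, 47 higher and 53 lower in the corpus. With library totals, 76 were called higher and 35 lower, where the median change moved up by 0.33. All 25 miRNAs called in epithelial cells were tested in whole tissue, 3 of them under a name with the letter a added, and 18 were called there in the same direction. Among all 202 miRNAs tested in both preparations, 51 (25.2%) were called in whole tissue. Levels of miR-196a-5p in whole tissue were 9.65, 11.7 and 13.7 CPM in the caput and 224 and 247 CPM in the corpus, a log2 change of 4.30 (SE 0.22), beside 4.81 in epithelial cells. Levels of miR-9-5p in whole tissue were 1353, 1546 and 1372 CPM in the caput and 146 and 59.7 CPM in the corpus, a change of -3.94 (SE 0.26), beside -4.34. Neither miRNA overlapped between the regions in either preparation. In epithelial cells 136 of the 205 tested (66.3%) did not overlap either, and the share in whole tissue was not counted. The 7 that were not called in whole tissue were miR-106b-5p (0.85), miR-141-3p (0.16), miR-191-5p (-0.81), miR-126-5p (-0.17), miR-126-3p (0.07), miR-574-3p (-0.18) and miR-672-5p (-0.68).

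**Figure D4:**
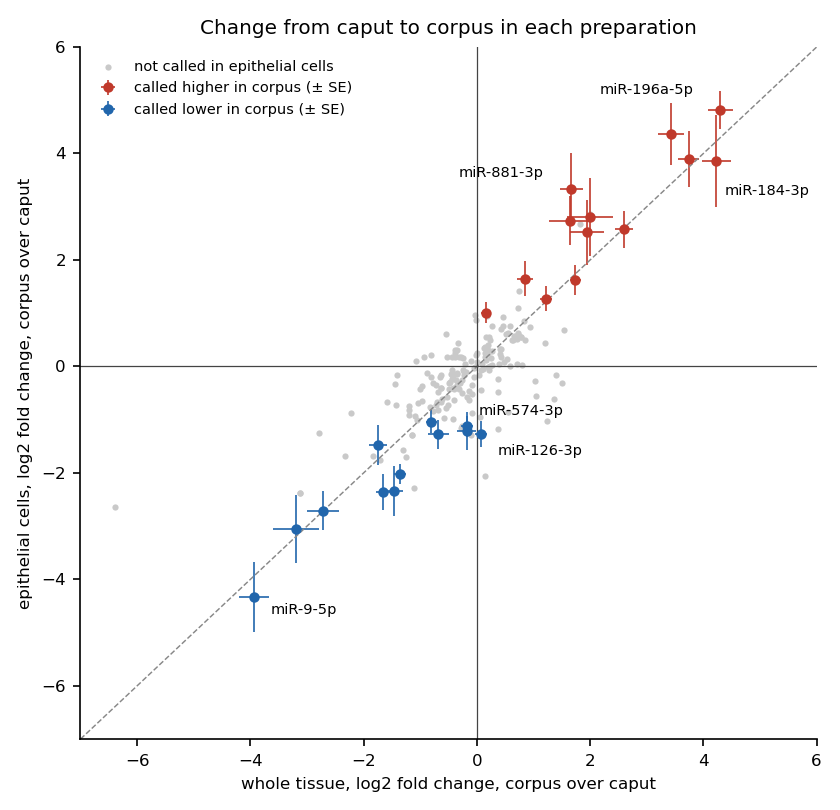
Log2 fold changes from caput to corpus in whole tissue (horizontal axis) and in epithelial cells (vertical axis), where each point is 1 miRNA, bars are standard errors, and the dashed line marks equal changes. The miRNAs called higher in epithelial cells (red) lie above 0 on both axes, while of those called lower (blue) miR-126-3p sits at 0.07 in whole tissue.

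The difference between the changes of the preparations was tested as an interaction over all 14 libraries, for the 184 names found above the count rule in both. Of these, 1 (0.543%) was called, and 33 had an unadjusted p below 0.05. This was miR-181c-5p, whose change was larger in epithelial cells by 1.02 on the log2 scale (SE 0.18, adjusted p = 0.00929). Levels of miR-181c-5p in epithelial cells were 9366 and 7607 CPM in the caput and 14606 and 11315 CPM in the corpus, a log2 change of 0.61 (SE 0.19, adjusted p = 0.0508). In whole tissue they were 24419, 27438 and 22603 CPM in the caput and 18082 and 15770.4 CPM in the corpus, a log2 change of -0.55 (SE 0.11, adjusted p = 0.00201). The corpus was thus the higher region in epithelial cells and the lower one in whole tissue. Over 9 other settings the call held in 6 and the adjusted p ran from 0.000647 to 0.0616. It was lost without caput replicate 2 (adjusted p = 0.0616) or corpus replicate 1 (0.0561), which left 0 calls, and with library totals, where the difference was 0.99. When names were also matched after adding the letter a, 9 of 202 were called and the median difference moved up by 0.29. Of these 9, 8 had a positive difference, such as miR-205-5p (1.16). Another was miR-9-3p (3.90), with 0 CPM in both corpus libraries of epithelial cells and 0 and 0.66 CPM in those of whole tissue. Its difference thus rests on corpus values at the floor in both preparations. The 1 negative difference was that of miR-126-3p, -1.18 (SE 0.24, adjusted p = 0.0122).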

How the data were processed

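Small RNA libraries of mouse epididymis were analysed from the tables of the study, 6 of isolated epithelial cells and 8 of whole tissue. The submitters' processing notes name CASAVA 1.8.2, Bowtie 1.1.1 and limma, and the authors aligned trimmed reads to the mouse genome and to miRBase. The deposited values are the authors' expected counts, not normalized; each epithelial value carried an added 0.001, subtracted here. How reads matching several miRNAs were divided is not given in the sources used here, and 2.95 to 4.58% of the values of an epithelial library were fractions. Counts were rounded to whole numbers for the tests, which changed a library total by at most 0.0034%. Tests used limma-voom (limma 3.58.1, R 4.3.3) with TMM factors from edgeR 4.0.16, fitted on the 216 miRNAs with a mean count above 10 in any epithelial region. Each adjusted p is limma's Benjamini-Hochberg value where the text names no other tool; SE comes from the same model. The preparations were compared by an interaction term in limma-voom over the names that both tables give.

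Alternatives were edgeR's quasi-likelihood test, DESeq2 1.42.0 (Wald test, size factors), library totals, other filters, a fit of the 4 libraries alone, a replicate block and leaving out each library. With 1 library left in a region, that library is assumed to vary like the other groups. Fits without a library are counted apart from the alternatives given for a miRNA. The 0 columns left out mean that all libraries were used. Named miRNAs are all that were called, the other arm of their hairpins where listed, the 10 most abundant, the 5 largest changes not called, those at the edge of the count rule, and from each list its most abundant and called members; others were chosen after their values were seen. Members and lists were chosen with earlier results of these data known. The scripts were run with Python 3.11.15 and were tested on simulated data. Host genes are from GENCODE M21, sequences and positions from RefSeq GRCm38.p6.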

Additional observations from a re-analysis of the deposited data

Results flagged for a closer look

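The change of miR-181c-5p from caput to corpus differed between the preparations. It was larger in epithelial cells than in whole tissue by 1.02 on the log2 scale in limma's test of the difference itself (adjusted p = 0.00929). The call held in 6 of 9 other settings, and was lost with library totals (difference 0.99), without caput replicate 2 (adjusted p = 0.0616) and without corpus replicate 1 (0.0561). Both corpus libraries were above both caput libraries in epithelial cells, and both corpus libraries were below all 3 caput libraries in whole tissue.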

How the results depend on the processing

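The direction of each of the 25 called miRNAs was the same in all alternatives that tested it, 19 were called in each of them, and 8 also without each library in turn. The count of 25 was 53 (27 higher, 26 lower) with all 551 miRNAs of at least 1 count tested, 24 of them shared, and ran from 10 to 30 with each epithelial library left out in turn. It was 31 with edgeR, 29 with the 4 libraries alone, 27 with the same CPM threshold in both regions and 18 of 135 with at least 10 counts in each of the 4 libraries. With TMM and the model on the miRNAs of caput and corpus only, chosen after seeing the data, it was 28. In whole tissue, alternatives chosen after seeing the data gave 111 (library totals) and 101 (edgeR) in place of 100. The 205 miRNAs tested became 193 with a count above 10 in both libraries of a region, 207 with a mean of at least 10, 155 with the libraries at the smallest total, and 198 to 209 with each caput or corpus library left out.

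The count of changes that differed between the preparations, 1 of 184, was 3 with edgeR, 2 with library totals (miR-181c-5p not among them), 9 with names matched after adding the letter a, 4 with only the caput and corpus libraries, and 0 to 1 without each epithelial caput or corpus library in turn (other libraries were not left out), where the fits with 0 calls had 28 and 34 unadjusted p-values below 0.05. The cause was not tested.

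The labels of different regions only share a replicate number. Epididymides were dissected into caput, corpus and cauda before pooling, and whether same-numbered libraries came from the same mice is not stated. With the replicate numbers as a block, 27 miRNAs were called from caput to corpus (14 higher, 13 lower), all 25 among them, and 2 differed between the preparations. Deviations of same-numbered caput and corpus libraries had r = 0.199 across 205 miRNAs (log2 CPM, pseudocount 0.5), which are not independent replicates. This is a hint from the data, since the design does not state a pairing.

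Each region had 2 libraries, and the smallest held 89039 counts. The median SE was 0.56 for miRNAs that met the count rule in the caput only and 0.26 for those that met it in both regions.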
